A study of Mus musculus with 4 samples.

Results

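The 33 genes described here encode proteins of the sarcomere and the Z-disc. They were chosen by gene symbol, and all 33 were among the 21884 genes counted. The sarcomere is the repeating contractile unit of the cardiomyocyte, in which thick myosin filaments slide along thin actin filaments. Thin filaments are anchored at the Z-disc and thick filaments at the M-band, and titin spans the distance between them. Many Z-disc proteins also carry mechanical signals to the nucleus, and mutations in many of these genes cause cardiomyopathy.

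RNA of single nuclei was sequenced from the hearts of 4 male C57BL/6J wild-type (WT) mice, with 1 whole heart in each library. All 4 mice had been injured at day 1 after birth, and their hearts were taken 21 days later. The fathers of 2 mice had themselves been injured (injured-father libraries 1 and 2), and those of the other 2 had not (uninjured-father libraries 1 and 2). The father groups ask whether an injured heart differs according to injury of the father. No uninjured offspring was part of the comparison. The hearts were snap frozen, and blood cells were sorted out with a Ter119 antibody. The labels do not say which animals share a father or a litter.

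After filtering, 34002 nuclei remained, with 15682280 to 32963608 UMIs (unique transcript molecules) per library. Uninjured-father library 2 was the shallowest, with a median of 1864 UMIs per nucleus against 2127 to 2671 in the others, and had the highest share of doublets (14.8% against 9.62% to 9.90%). A total of 119 barcode sequences occurred in more than 1 library among the nuclei used. Cardiomyocyte-like nuclei numbered 1851 and 2467 in the injured-father libraries and 2774 and 2062 in the uninjured-father libraries. They fell into 1 ventricular-like cluster of 8423 nuclei and 1 atrial-like cluster of 731. Clusters were built without the 33 genes, so the division does not rest on their own values. Of 12 atrial marker genes, 11 had the higher mean level in the atrial-like cluster, and Myl4 averaged 682 CPM (the usual depth-scaled count, over all UMIs of the class) there against 13.3 CPM in ventricular-like nuclei. All 8 ventricular markers had the lower mean there, and Myl2 averaged 188 against 1028 CPM. Atrial-like nuclei numbered 187 and 311 in the injured-father libraries and 185 and 48 in the uninjured-father libraries, so values from the last rest on few nuclei.

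Promoter sequences are shown for the 3 genes with the largest differences between chambers, described further on. They span 250 bases before to 50 after the transcription start (RefSeq, build GRCm38.p6, written on the coding strand). Fhl2 at chr1:43196712-43197011 (minus strand) is the upstream of 2 starts. Mybpc3 lies at chr2:91117894-91118193 (plus strand) and Ankrd1 at chr19:36119795-36120094 (minus strand). Capitals mark matches, on either strand, to 4 motifs of muscle promoters: the MCAT element (CATTCC), the TATA element (TATAAA), the CArG box and the MEF2 box.
Fhl2: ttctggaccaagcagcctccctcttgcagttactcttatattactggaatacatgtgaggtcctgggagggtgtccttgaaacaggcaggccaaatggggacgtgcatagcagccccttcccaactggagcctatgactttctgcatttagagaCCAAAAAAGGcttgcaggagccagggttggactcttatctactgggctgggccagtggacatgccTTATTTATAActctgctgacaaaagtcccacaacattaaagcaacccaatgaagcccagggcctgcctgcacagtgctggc
Mybpc3: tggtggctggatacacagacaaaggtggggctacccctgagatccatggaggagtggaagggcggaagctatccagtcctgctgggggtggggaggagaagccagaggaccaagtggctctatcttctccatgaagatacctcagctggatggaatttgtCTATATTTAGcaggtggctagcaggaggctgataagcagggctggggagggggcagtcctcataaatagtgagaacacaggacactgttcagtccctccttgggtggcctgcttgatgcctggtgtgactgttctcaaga
Ankrd1: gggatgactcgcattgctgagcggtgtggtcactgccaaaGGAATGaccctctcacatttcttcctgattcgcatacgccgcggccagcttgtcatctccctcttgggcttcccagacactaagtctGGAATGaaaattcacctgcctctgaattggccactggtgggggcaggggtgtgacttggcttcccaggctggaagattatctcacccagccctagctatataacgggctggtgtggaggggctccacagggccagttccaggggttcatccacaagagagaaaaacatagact
The Fhl2 window held a CArG box, and a MEF2 box overlapping a TATA element. The Mybpc3 window held 1 MEF2 box, and the Ankrd1 window held 2 MCAT elements. Among 39 start windows of the 26 members with an entry, MCAT occurred in 33.3%, TATA in 10.3%, the CArG box in 15.4% and the MEF2 box in 17.9%. Among all 32851 start windows of the same length the shares were 14.7%, 13.6%, 1.63% and 3.19%. A match is a description of the letters and not a binding site.

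In cardiomyocyte-like nuclei the 33 genes together made up 8.03% ± 0.577 of all UMIs (SD, n = 4), and Ttn alone made up 3.32% to 4.25%. Ttn encodes titin, the giant protein that acts as the spring of the sarcomere, and spans 279 kb at chr2:76703980-76982547. Per kilobase of gene span, the thin-filament gene Tnnt2 (cardiac troponin T) stood at 255 CPM, the calcium-binding subunit Tnnc1 (cardiac troponin C) at 174, and Fhl2, a LIM-domain protein bound to titin, at 152. Ttn stood at 133 CPM per kilobase of span. The lowest values per kilobase were Nebl, the nebulette gene, at 2.46 CPM and Xirp1, an actin-binding protein of the intercalated disc, at 2.81 CPM.

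The same genes were read at a low and nearly constant amount in nuclei that are not cardiomyocytes. In droplet data, RNA set free from broken cells enters every droplet, so the level in cell types that do not make a transcript measures that free RNA. A typical fibroblast-like nucleus held a median of 11, 15, 14 and 11 UMIs of the 33 genes together in injured-father libraries 1 and 2 and uninjured-father libraries 1 and 2. In the same order, pericyte-like nuclei (pericytes support capillaries) held 10, 14, 13 and 11. Vascular endothelial-like nuclei held 11, 15, 13 and 11, and macrophage- or monocyte-like nuclei 10, 14, 13 and 11. The 4 classes thus differed from each other within a library by at most 1 UMI, and all 4 were highest in injured-father library 2. These medians are not scaled for depth. As a share of all UMIs, the 33 genes made up 0.471%, 0.549%, 0.568% and 0.642% in fibroblast-like nuclei. By share, pericyte- and vascular endothelial-like nuclei were also highest in uninjured-father library 2, and macrophage- or monocyte-like nuclei in uninjured-father library 1. B lymphocyte-like nuclei, which are not of muscle, held a median of 10, 13, 12 and 10 UMIs of the 33 genes. Their median depth was only 1002 to 1327 UMIs, against 1705 to 2551 in fibroblast-like nuclei. Whether they make some of these transcripts themselves was not tested. Ventricular-like nuclei held 351, 390, 371 and 274.5 UMIs in the same order, and atrial-like nuclei 209, 255, 246 and 192.

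**Figure D1:**
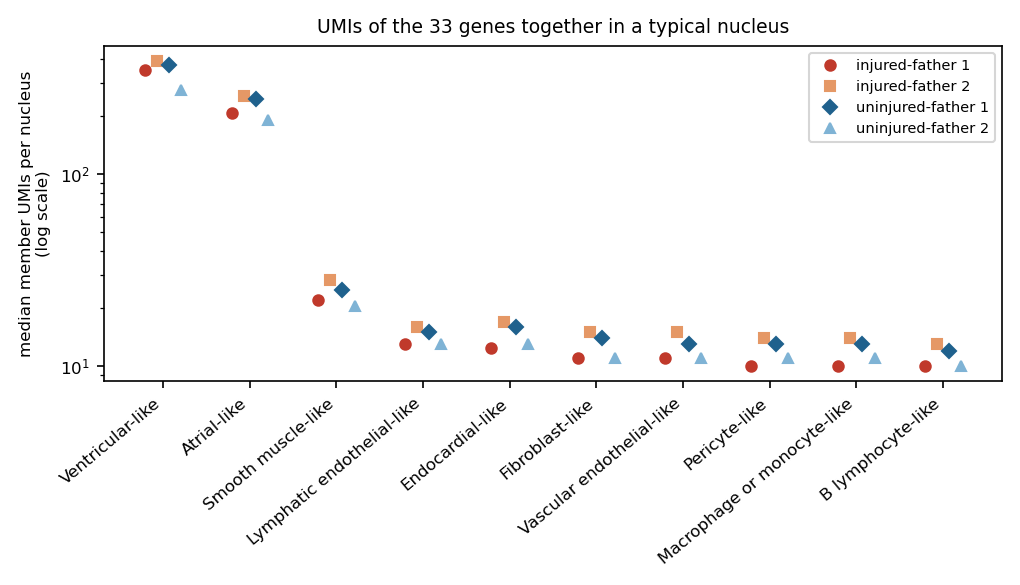
Median number of UMIs of the 33 genes together per nucleus (vertical axis, log scale) in 10 classes of nuclei, with 1 point per library. Most classes other than cardiomyocytes sit between 10 and 17 UMIs in every library, while smooth muscle-like nuclei sit between 20.5 and 28.

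In the small classes the mean stood well above the median, and a few nuclei carried far more than the rest. In B lymphocyte-like nuclei the mean was 13.1 and 26.5 UMIs in the injured-father libraries and 27.2 and 49.7 in the uninjured-father libraries. In uninjured-father library 2, 3 of its 73 B lymphocyte-like nuclei held over 100 member UMIs, and the top 10% of nuclei held 82.3% of the class's member UMIs. Whether those nuclei are doublets that remained was not tested. Over all named classes other than cardiomyocytes (called other nuclei below), 16 of 6183, 17 of 6805, 49 of 6377 and 19 of 4623 nuclei held over 100.

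Across other nuclei, most members kept a similar ratio to their level in cardiomyocytes. The median gene stood at 11.5% of its CPM in cardiomyocyte-like nuclei, and the 33 ranged from 5.83% (Ttn) to 135% (Pdlim3). In UMIs per nucleus, over all libraries together, the ratios ranged from 2.46% (Ttn) to 57.1% (Pdlim3). The 4 lowest in CPM were Ttn, Fhl2 at 6.89% ± 0.603 (SD, n = 4), Ldb3 at 7.65% ± 0.741 and Fhod3 at 8.003% ± 0.871. Ldb3 encodes the Z-disc protein ZASP, and Fhod3 a formin that assembles cardiac actin. The Ttn ratio was 5.08%, 5.55%, 6.20% and 6.49% in injured-father libraries 1 and 2 and uninjured-father libraries 1 and 2. That of Ldb3 was 7.54%, 7.17%, 8.73% and 7.16%, highest in uninjured-father library 1, so the libraries did not keep 1 order across genes. The ratio showed little relation to gene span across the 33 genes (Spearman's rho -0.21). That value is a description across genes that share libraries.

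Free RNA was detectable in most nuclei for the most abundant transcripts. After thinning every nucleus to 1000 UMIs, 93.1% ± 4.65 (SD, n = 4) of B lymphocyte-like and 77.8% ± 4.90 of fibroblast-like nuclei still held a Ttn UMI (98.2% and 96.3% unthinned). Fhl2 was found in 67.1% ± 6.73 and 46.9% ± 3.56 of them. Thinning left out 28 to 101 B lymphocyte-like nuclei per library that held fewer UMIs. A UMI of these genes in a nucleus therefore does not mark it as a cardiomyocyte. Libraries were also compared for Ankrd1, a stress-responsive repeat protein of the titin region. Ventricular-like nuclei held 555, 1262, 931 and 1006 Ankrd1 UMIs per 1000 nuclei, and other nuclei 26.0, 83.9, 50.02 and 50.2. Injured-father library 1 was the lowest and injured-father library 2 the highest in both, in counts per nucleus that are not scaled for depth. In CPM, uninjured-father library 2 was the highest in ventricular-like nuclei.

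Some members stood above this common ratio in particular classes. In each class, a gene's UMIs per nucleus were divided by those in ventricular-like nuclei and then by the median of that ratio over the 33 genes. In fibroblast-, vascular endothelial-, pericyte- and macrophage- or monocyte-like nuclei, 28 of 33 genes lay within 2 times of the median. Of the 33 genes, 7 stood at 3 times or more in 4 of 4 libraries in at least 1 of 10 classes: Cryab, Des, Flnc, Myom1, Pdlim3, Pdlim5 and Sorbs2. No member did so in B or T or NK lymphocyte-like nuclei. The limit of 3 times was chosen after the values were seen.

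Smooth muscle-like nuclei carried 5 of them. Myom1, the myomesin gene of the M-band that crosslinks thick filaments, had 2826, 3859, 4663 and 2904 UMIs per 1000 smooth muscle-like nuclei in injured-father libraries 1 and 2 and uninjured-father libraries 1 and 2. Pericyte-like nuclei had 434, 598, 614 and 469 in the same order, so the 2 classes did not overlap. Sorbs2, an adaptor of the Z-disc and of focal adhesions, had 4452, 3250, 6607 and 3640 UMIs per 1000 smooth muscle-like nuclei against 416, 569, 557 and 437 in pericyte-like nuclei. Pdlim5, a PDZ and LIM domain protein that binds alpha-actinin, had 4026, 3261, 4816 and 2596 against 628, 750, 761 and 570. Every smooth muscle-like library lay above every pericyte-like one for all 3 genes. Sorbs2 also passed the limit in Schwann- or glial-like nuclei, at 4712, 3381, 4303 and 3244 UMIs per 1000 nuclei in the same order. Myom1 was read in 71.5% ± 4.68 of smooth muscle-like nuclei thinned to 1000 UMIs (85.8% unthinned), against 84.8% ± 5.28 of ventricular-like and 32.9% ± 8.02 of B lymphocyte-like nuclei. Ttn was far less raised in smooth muscle-like nuclei (7165, 5359, 7472 and 4228 UMIs per 1000 nuclei against 3340, 4553, 3494 and 3862 in pericyte-like nuclei), and the lowest library of the former lay inside the range of the latter. The other 2 of the 5 were Des, which encodes the intermediate filament desmin, and Pdlim3. Tpm1 (tropomyosin) stood at 2.95 to 3.99 times the class median and met the limit in 3 of 4 libraries.

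Pdlim3, which encodes an alpha-actinin-binding protein of the Z-disc, was the member least restricted to cardiomyocytes. Its level in other nuclei was 106%, 170%, 135% and 127% of that in cardiomyocyte-like nuclei, in CPM, in injured-father libraries 1 and 2 and uninjured-father libraries 1 and 2. In UMIs per nucleus, over all libraries together, it was 57.1%. Nuclei like those of the endocardium, which lines the chambers, held 787, 1302, 1324 and 722 Pdlim3 UMIs per 1000 nuclei, and smooth muscle-like nuclei 1061, 1109, 1117 and 807. Ventricular-like nuclei held 575, 505, 639 and 413, and B lymphocyte-like nuclei 49.5, 51.1, 88.5 and 82.2. Endocardial- and smooth muscle-like nuclei each had more Pdlim3 UMIs than ventricular-like nuclei in 4 of 4 libraries. The gene was read in 13.7% ± 0.516 of fibroblast-like nuclei thinned to 1000 UMIs (24.4% unthinned) and in 3.95% ± 3.56 of B lymphocyte-like nuclei (4.76% unthinned).

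Cryab, which encodes the small heat shock protein alpha-B crystallin, came next in that ratio at 42.8% ± 6.04, ahead of Pdlim5 at 29.0% ± 1.88 and Flnc at 28.4% ± 3.56 (SD, n = 4). Flnc encodes filamin C, an actin crosslinker of Z-discs and intercalated discs. It held 190, 276, 345 and 96.2 UMIs per 1000 lymphatic endothelial-like nuclei and 91.9, 79.8, 96.6 and 83.8 per 1000 fibroblast-like nuclei, against 16.9, 12.3, 15.9 and 13.7 in pericyte-like nuclei. Neither of the first 2 classes overlapped the third. Schwann- or glial-like nuclei held 169, 254, 118 and 88.9 Cryab UMIs per 1000 nuclei against 19.6, 46.4, 45.3 and 38.3 in pericyte-like nuclei. Those Cryab values rest on 39 UMIs in all. Cryab also passed the limit in fibroblast-like nuclei, at 4.13 to 5.02 times the class median, and in endocardial-like nuclei, at 3.28 to 6.44 times. Desmin transcripts were also above the common ratio in pericyte-like nuclei, at 3.75 to 5.19 times the class median.

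**Figure D2:**
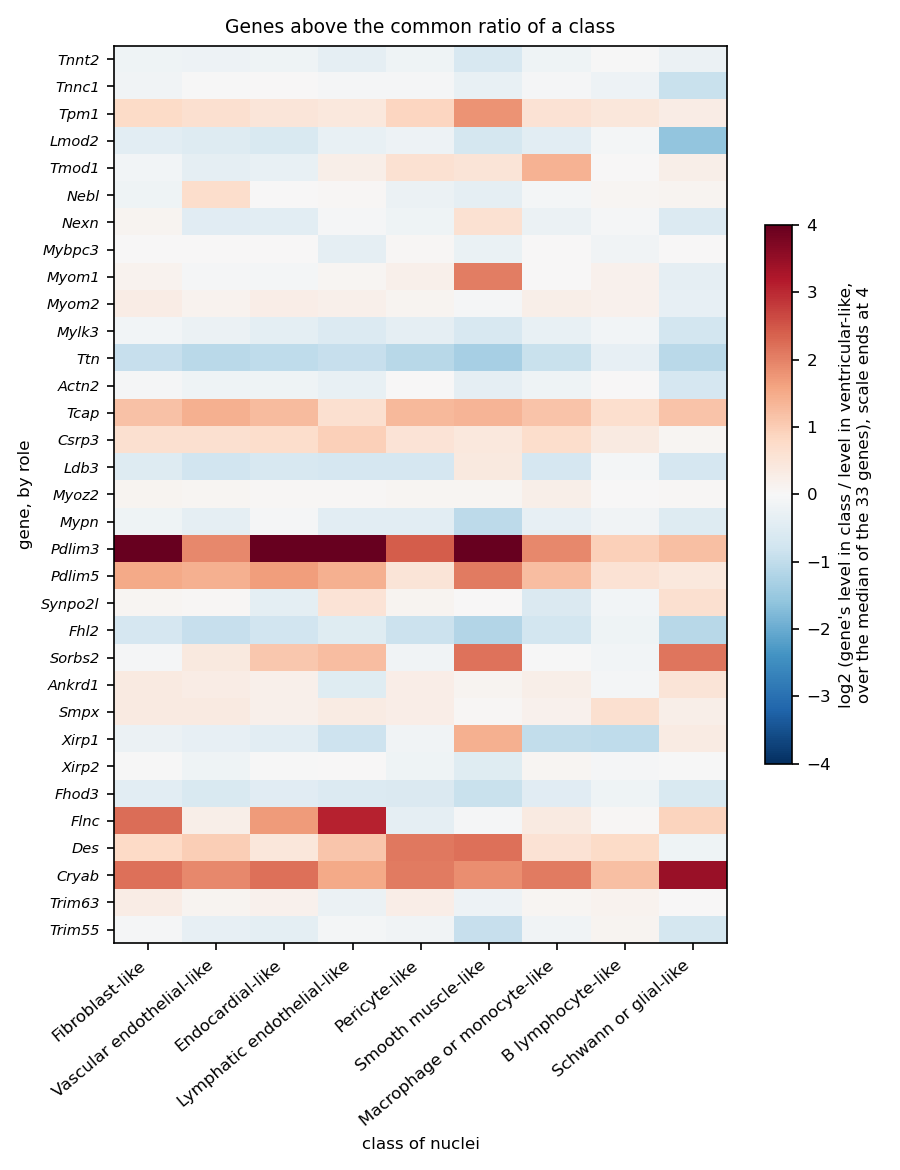
Heat map of each gene (rows, by role) in 9 classes of nuclei (columns), coloured by the log2 of its level relative to ventricular-like nuclei divided by the median of that ratio over the 33 genes, all libraries summed. Most cells are pale, and the dark rows and cells are Pdlim3, Cryab, Flnc and the smooth muscle-like column.

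Between chambers, members were on the whole lower in atrial-like nuclei. They made up 5.84% ± 0.539 of UMIs there and 8.21% ± 0.502 in ventricular-like nuclei (SD, n = 4), and the 2 ranges did not overlap. Ttn held 31122, 28873, 25917 and 35281 CPM in atrial-like nuclei of injured-father libraries 1 and 2 and uninjured-father libraries 1 and 2, against 37171, 37399, 33699 and 42640 in ventricular-like nuclei. Each library was lower in its atrial-like nuclei, by a mean log2 difference of -0.32 ± 0.06 (SD, n = 4). Of the 33 genes, 19 were lower and 8 higher in 4 of 4 libraries, where 23.6% and 20.9% of the 8008 genes with at least 10 CPM in either class were. Their median log2 difference was -0.32, against -0.04 over those genes. The comparison is between clusters of the same nuclei and is a description with no test.

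Fhl2 was 3.14 times higher in ventricular-like nuclei. Atrial-like nuclei held 3439, 2817, 4361 and 4465 CPM and ventricular-like nuclei 13295, 10168, 11942 and 11905 CPM, a mean log2 difference of -1.67 ± 0.27 (SD, n = 4). Beside these, other nuclei held 1644, 1573, 2017 and 1383 Fhl2 UMIs per 1000 nuclei against 15192, 15724, 21795 and 16979 in atrial-like nuclei. Mybpc3, which encodes the cardiac myosin-binding protein C that regulates crossbridge cycling, held 344, 285, 308 and 559 CPM in atrial-like and 789, 860, 761 and 1203 CPM in ventricular-like nuclei. Its mean log2 difference was -1.30 ± 0.21. The 2 classes did not overlap in either gene.

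Ankrd1 went the other way. It held 173, 695, 456 and 646 CPM in atrial-like nuclei of injured-father libraries 1 and 2 and uninjured-father libraries 1 and 2, against 104, 215, 163 and 277 CPM in ventricular-like nuclei. It was higher in atrial-like nuclei in 4 of 4 libraries, by a mean log2 difference of 1.28 ± 0.42, though injured-father library 1 in the first class lay within the range of the second. These 3 genes were the ones with a mean log2 difference of at least 1 in size and 1 sign in 4 of 4 libraries. Past that limit, 1 member was higher and 2 were lower in atrial-like nuclei, where 6.36% and 3.97% of all 8008 genes were.

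The members nearest the limit were Ankrd1 and Mybpc3 inside it and Xirp1 and Tcap outside it. Tcap, which encodes telethonin, the cap that joins 2 titin ends at the Z-disc, held 149, 175, 346 and 274 CPM in atrial-like and 82.2, 86.6, 127 and 175 CPM in ventricular-like nuclei, a mean log2 difference of 0.98 ± 0.34. Its difference was 1.10 without uninjured-father library 2, which has 48 atrial-like nuclei, and 1.03 without injured-father library 1. Xirp1 held 16.9, 19.01, 19.5 and 5.48 CPM in atrial-like and 28.4, 30.05, 22.9 and 32.6 CPM in ventricular-like nuclei (mean log2 difference -0.99 ± 0.95). Without uninjured-father library 2 its difference was -0.52, so that library decides its size. The atrial-like nuclei of that library held 182704 UMIs in all, so 5.48 CPM is at the lowest level above 0 that they can show.

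The next members were smaller in difference. Fhod3 held 2898, 2805, 3143 and 2750 CPM in atrial-like and 5141, 5144, 5073 and 4556 CPM in ventricular-like nuclei, with a mean log2 difference of -0.78 ± 0.09 and no overlap. Cryab held 39.9, 124, 80.0 and 60.3 CPM against 36.6, 42.9, 36.5 and 51.3, with a difference of 0.74 ± 0.68 that came mostly from 2 libraries. Pdlim3 held 125, 88.1, 207 and 197 CPM against 108, 85.9, 112 and 114, a difference of 0.48 ± 0.42. By role, 4 of 7 thin-filament genes, 2 of 4 thick-filament and M-band genes, 8 of 14 titin and Z-disc genes and 3 of 4 genes of actin assembly and the intercalated disc were lower in atrial-like nuclei in 4 of 4 libraries. Higher in 4 of 4 libraries were 1, 1, 4 and 0 genes of those groups. Among thin-filament genes, Tnnt2 had a mean log2 difference of -0.31 and Tnnc1 of -0.59. In the thick filament Myom1 had -0.68 and Mylk3, the kinase of cardiac myosin light chain, 0.35. Des had -0.45, and of the muscle ubiquitin ligases Trim55 had -0.28 and Trim63 0.10.

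Of 23 other genes of the sarcomere that reached 10 CPM and served as no marker, 14 were lower and 3 higher in atrial-like nuclei in 4 of 4 libraries (median log2 difference -0.39). Myh7b, a myosin heavy chain named after its value was seen, had the largest difference of them at -3.42 ± 0.56, with a mean of 34.1 CPM in atrial-like and 346 CPM in ventricular-like nuclei (SD, n = 4).

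**Figure D3:**
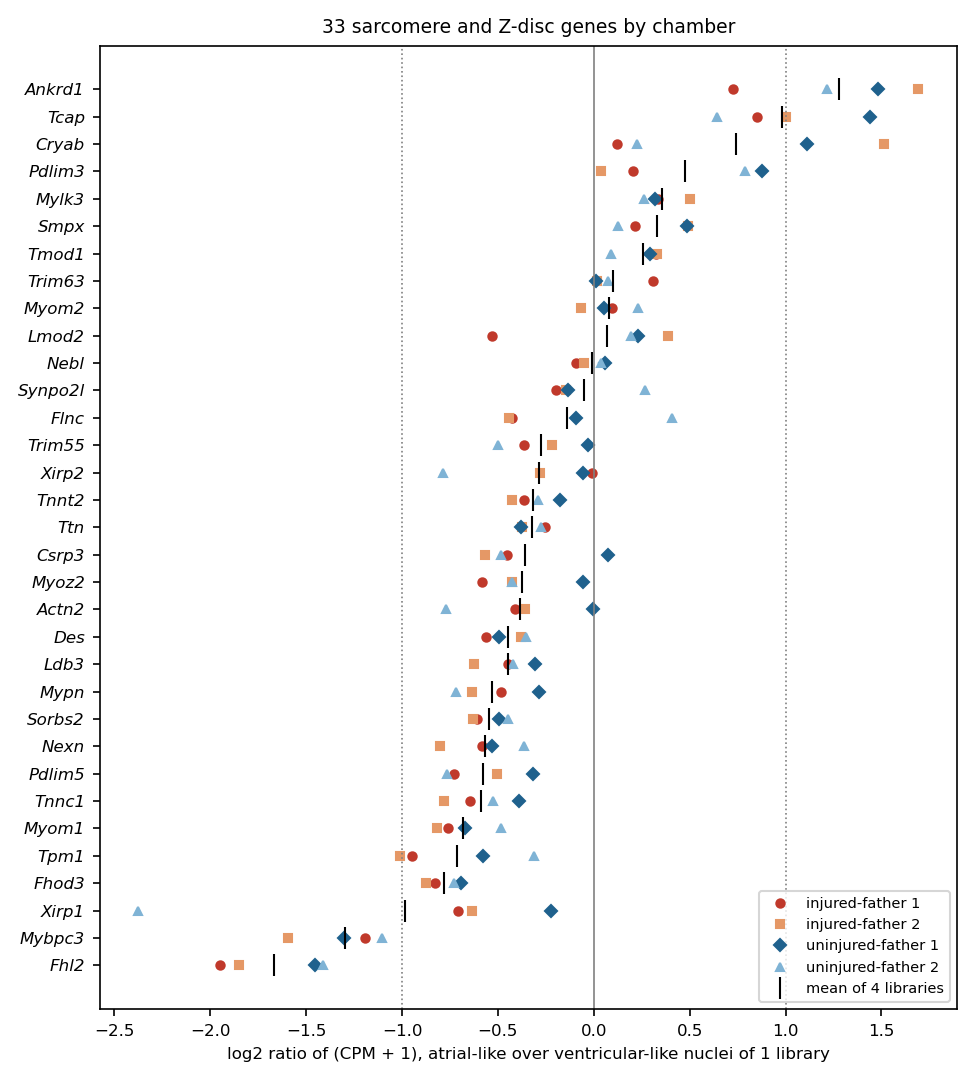
Log2 ratio of CPM + 1 in atrial-like over ventricular-like nuclei of the same library (horizontal axis) for each of the 33 genes (rows), with 1 point per library, a tick at the mean of 4 and dotted lines at 1 and -1. Fhl2 and Mybpc3 lie left of -1 in all libraries, and Ankrd1 has the rightmost mean.

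Among ventricular-like nuclei, Ankrd1 was the least evenly spread of the members with a comparable count. The top 10% of nuclei held 90.9%, 76.8%, 81.8% and 74.1% of Ankrd1 UMIs in injured-father libraries 1 and 2 and uninjured-father libraries 1 and 2, at 959 UMIs per 1000 nuclei. Csrp3, the muscle LIM protein of the Z-disc with 949 UMIs per 1000 nuclei, had 42.8% ± 4.29 in its top 10%, and Smpx, a small muscle protein with 1055, had 40.9% ± 1.55 (SD, n = 4). The range of Ankrd1 thus lay above both. Nuclei with at least 5 Ankrd1 UMIs numbered 57 of 1664, 171 of 2156, 148 of 2589 and 146 of 2014 in the same order, while 1413, 1497, 1969 and 1455 held none. The limit of 5 was chosen after the counts were seen.

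Those Ankrd1-rich nuclei carried more of several other members, in every library. Of the other 32 genes, 20 were higher in them in 4 of 4 libraries and 4 were lower, as CPM against the remaining ventricular-like nuclei, where 12.7% and 16.5% of 7675 genes with at least 10 CPM in either were. The median log2 difference of the 32 genes was 0.24, against -0.04 over those genes. Sorbs2 led with a mean log2 difference of 1.12 ± 0.21 (SD, n = 4), ahead of Pdlim3 at 1.11 ± 0.51 and Xirp2 at 1.09 ± 0.10. Xirp2 encodes an actin-binding protein of the intercalated disc related to Xirp1. The single-library differences of Xirp2 were 1.18, 1.17, 1.04 and 0.97, so it varied little between hearts. Flnc had 0.53 ± 0.16, Des 0.48 ± 0.13 and Mybpc3 0.45 ± 0.10. Ttn differed by 0.02 ± 0.06 and Tnnt2 by -0.03 ± 0.07, and neither had 1 sign in 4 of 4 libraries. The 4 lower genes were Mylk3 (-0.41 ± 0.08), Tcap (-0.27 ± 0.12), Fhod3 (-0.20 ± 0.04) and Fhl2 (-0.07 ± 0.08).

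Natriuretic peptide genes, named here after their values were seen, moved with them. Nppa was higher in Ankrd1-rich nuclei by 2.40 ± 0.50, Nppb by 2.29 ± 0.57 and the skeletal actin gene Acta1 by 2.12 ± 0.50 on the log2 scale, each in 4 of 4 libraries. Ankrd1-rich nuclei were deeper, with median UMIs of 4045 to 6942 against 3104 to 4959. Within nuclei of 4000 to 8000 UMIs, 17 of the 32 genes were higher and 3 lower in 4 of 4 libraries, where 10.9% and 12% of 7765 genes were. Sorbs2, Pdlim3 and Xirp2 differed there by 1.11, 1.16 and 1.16 on the log2 scale and Mylk3 by -0.49. Tcap differed by only -0.09, and Fhl2 (-0.05) and Flnc (0.63) no longer had 1 sign in 4 of 4 libraries. Markers of smooth muscle, summed over 6 genes, ranged from 191 to 308 CPM in Ankrd1-rich nuclei and from 152 to 330 CPM in the rest. Endocardial markers, summed over 6 genes, ranged from 728 to 949 against 556 to 734 CPM and were higher in 4 of 4 libraries. Atrial markers, summed over 12 genes, ranged from 1112 to 1404 against 1030 to 1174 CPM and were also higher in 4 of 4 libraries. Their part in these differences was not tested. The Ankrd1-rich nuclei were chosen by a member's own count, so these values are a description.

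**Figure D4:**
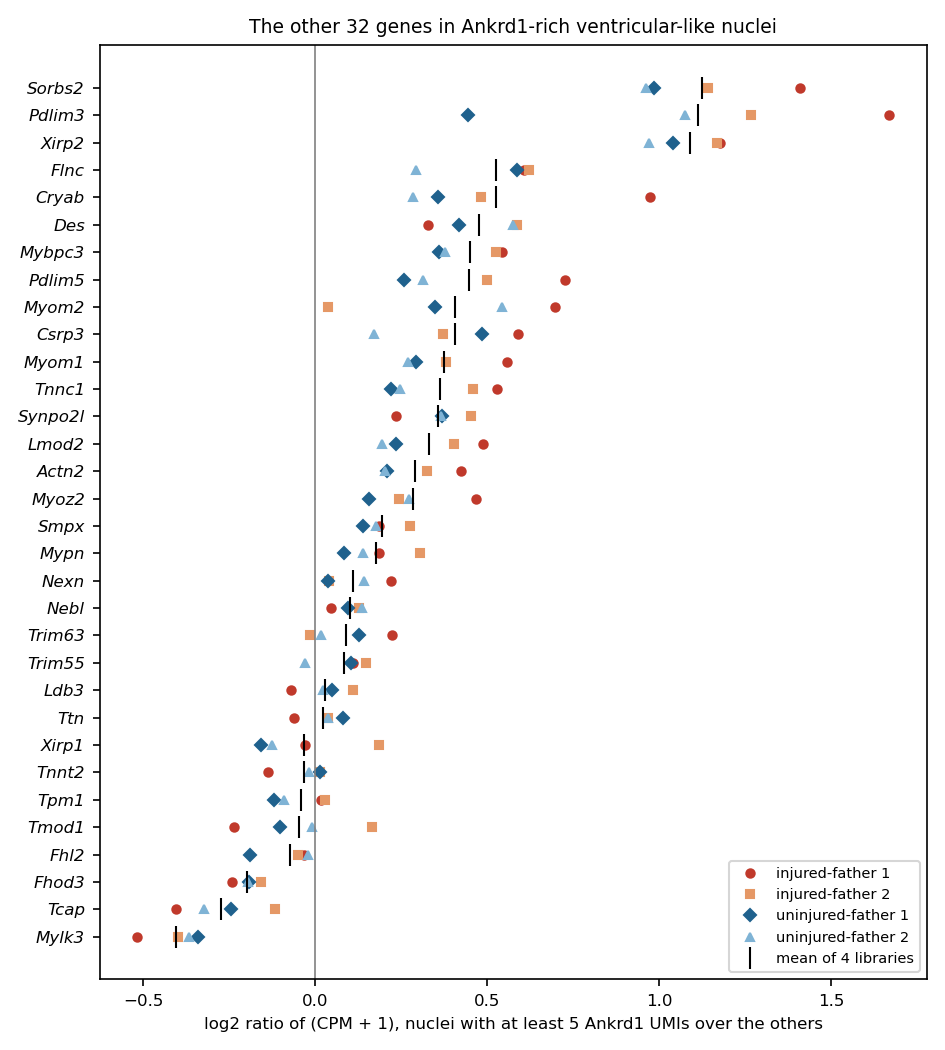
Log2 ratio of CPM + 1 in ventricular-like nuclei with at least 5 Ankrd1 UMIs over the remaining ventricular-like nuclei (horizontal axis) for the other 32 genes (rows), with 1 point per library and a tick at the mean. Sorbs2, Pdlim3 and Xirp2 lie apart with means of 1.12, 1.11 and 1.09, and Mylk3 has the lowest mean.

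An unnamed cluster of 249 nuclei also carried these genes. Grip1 and Cntn2 were among its leading genes, and it was kept out of both chambers and of the other nuclei. Members made up 5.51% ± 0.682 of its UMIs (SD, n = 4 libraries). Over all libraries together, Fhl2 stood at 4753 CPM in it and at 11695 CPM in ventricular-like nuclei, Pdlim3 at 416 against 104 CPM, and Ankrd1 at 511 against 185 CPM.

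Between father groups, none of the 33 genes passed the test in cardiomyocyte-like nuclei. Counts were summed over the nuclei of each library and tested with edgeR's quasi-likelihood test, adjusted by Benjamini-Hochberg over 12434 genes. At an adjusted p under 0.05, 0 of 33 members were called, where 0.00804% of all genes (1 gene) were, and 3 members had an unadjusted p under 0.05, as 4.36% of all genes had. DESeq2 called 1 member among 31 genes in all, and limma-voom called 0 genes. With 2 libraries against 2, the smallest p of an exact two-sided permutation test is 0.3333. The labels do not say that libraries of a group come from separate litters, so the spread is that between these 4 hearts. In counts simulated at the depths of these libraries, 73% of genes changed by 1 on the log2 scale were recovered in cardiomyocyte-like nuclei. Of those changed by 2, 97% were. There 100 genes were changed by each amount, and 7 unchanged genes were called. The simulation gave every gene the same fixed spread beyond counting noise. It does not carry the spread between these hearts, so the shares need not hold for them.

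**Figure D5:**
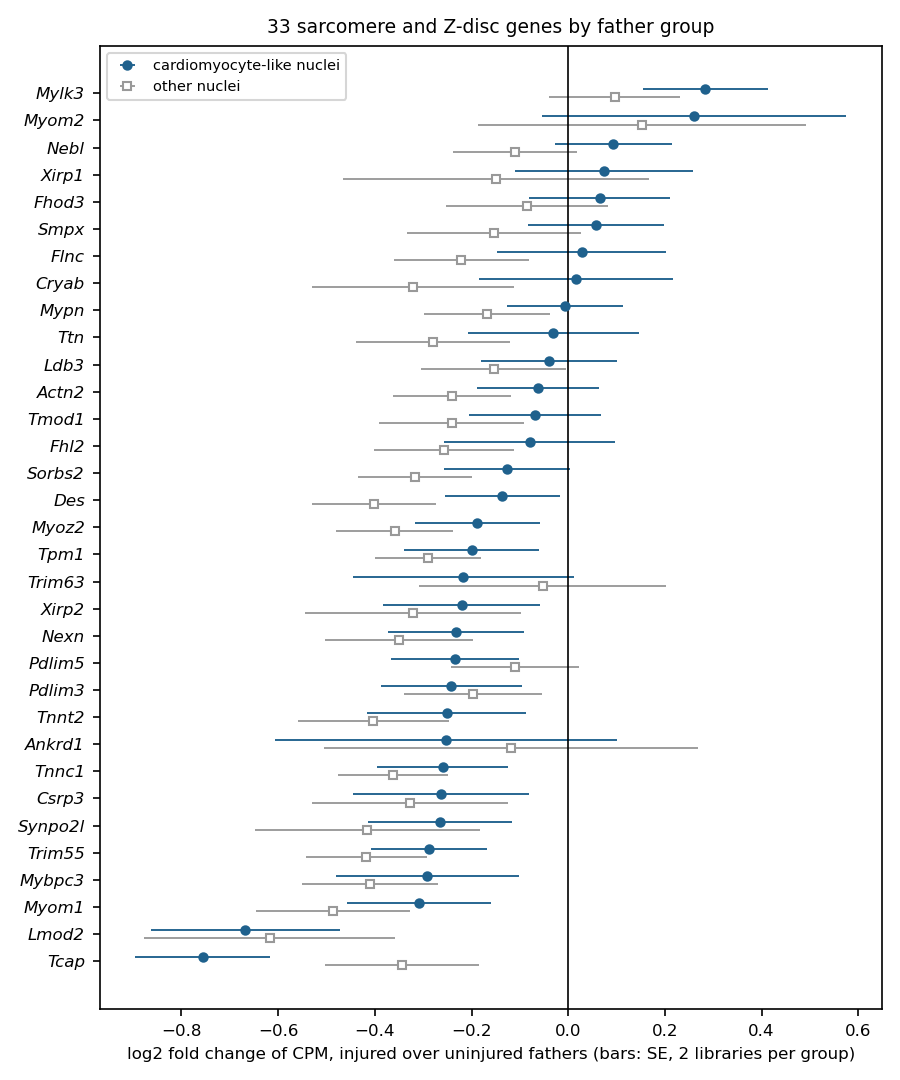
Log2 fold change of CPM in libraries with injured over uninjured fathers (horizontal axis, bars are standard errors, 2 libraries per group) for each of the 33 genes (rows) in cardiomyocyte-like nuclei and in other nuclei. Tcap and Lmod2 lie lowest in cardiomyocyte-like nuclei, Mylk3 has the highest value, and none passed the test in either.

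Tcap had the smallest p of the members. It stood at 88.0 and 98.1 CPM (scaled by TMM, as are all levels in the father comparison) in the injured-father libraries and at 143 and 172 CPM in the uninjured-father libraries, so the groups did not overlap. Its log2 fold change was -0.76 (standard error 0.14, edgeR adjusted p = 0.256). DESeq2, which called 31 genes in all, gave it an adjusted p of 0.0159 at a log2 fold change of -0.75. Without uninjured-father library 1 the log2 fold change was -0.88 (edgeR). In ventricular-like nuclei alone the change was -0.82 with an adjusted p of 0.811 (edgeR). Other nuclei held 23.4 and 30.2 CPM of Tcap against 35.8 and 32.1, and their ratio to cardiomyocyte-like nuclei was 25.2% ± 4.87 (SD, n = 4).

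Lmod2, the leiomodin that lengthens thin filaments at their pointed ends, came second. It stood at 208 and 325 CPM against 398 and 450 CPM, without overlap, for a log2 fold change of -0.67 (standard error 0.20, edgeR adjusted p = 0.787). Without uninjured-father library 1 its change was -0.75 (edgeR). Leaving out injured-father library 1 gave a change of -0.38, and leaving out injured-father library 2 gave -1.03, so single libraries decide its size. The same gene stood at 16.2 and 29.1 CPM in other nuclei of injured-father libraries and at 30.8 and 39.7 CPM in those of uninjured-father libraries. The next 4 by p had an adjusted p of 1.00 (edgeR). Trim55, a ubiquitin ligase of titin and the M-band, stood at 638 and 635 CPM against 766 and 788, and Mylk3 at 613 and 694 CPM against 514 and 560. Myom1 stood at 1629 and 2001 CPM against 2157 and 2339, and Tnnc1 at 551 and 527 CPM against 587 and 703. Each of the 4 separated the groups without overlap, Mylk3 with higher and the other 3 with lower values after injured fathers.

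The most abundant members of the other roles, and Fhl2, did not pass the test either. Ttn stood at 36726 and 36707 CPM against 33961 and 41062, so the groups overlapped (log2 fold change -0.03, standard error 0.18). Fhl2 stood at 12478 and 9368 CPM against 11745 and 11337, with overlap. Tnnt2 stood at 3307 and 4091 CPM against 4014 and 4794, with overlap, and Des at 137 and 130 CPM against 144 and 148, without overlap. Fhod3 stood at 4959 and 4907 CPM against 5066 and 4363, with overlap.

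By count, 25 of 33 members had a negative log2 fold change in cardiomyocyte-like nuclei, against 50.7% of all genes tested. Their median was -0.19 (all genes -0.00). For 15 members both injured-father libraries lay below both uninjured-father libraries, where 15.7% of all genes did, and for 2, Nebl and Mylk3, both lay above, where 15.3% did. Negative values made up 6 of 7 thin-filament genes, 2 of 4 thick-filament and M-band genes, 13 of 14 titin and Z-disc genes, 1 of 4 genes of actin assembly and the intercalated disc, 1 of 2 of the intermediate filament and chaperone group and 2 of 2 ubiquitin ligases. In ventricular-like nuclei alone 25 of 33 were negative with a median of -0.14, and 0 were called, where 0.00816% of all genes were. There 2 members had an unadjusted p under 0.05 (edgeR, 3.04% of all genes). DESeq2 called 1 member among 5 genes in all, and limma-voom called 0 genes. Of 35 other genes of the sarcomere, 24 were negative (median -0.10) and 0 were called. Those with the smallest p were Myh7 at -0.71 (adjusted p = 0.787), Myh7b at -0.42 (adjusted p = 0.828), Acta1 at -0.99 and Pdlim7 at -0.51 (each with an adjusted p of 1.00, all edgeR).

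In nuclei other than cardiomyocytes the members also stood lower in CPM after injured fathers, and fewer of them did so per nucleus. In other nuclei 31 of 33 members had a negative log2 fold change (median -0.28), against 50.6% of all genes. These sums include the few nuclei with many member UMIs described above, and their part in the difference was not tested. There 0 members were called by edgeR, where 0.225% of all genes were, and 0 by limma-voom, and 10 had an unadjusted p under 0.05 (6.51% of all genes). Calls over all genes moved when a library was left out, so calls from those fits are not read as results about the members. For 17 members both injured-father libraries of other nuclei lay below both uninjured-father libraries in CPM, where 17.7% of all genes did. In UMIs per nucleus 0 of 33 members did, where 3.08% of 14092 genes did. The mean per nucleus was lower after injured fathers for 21 of 33 members and for 16.7% of those genes. All 33 genes together held 12.96 and 16.9 UMIs per other nucleus in the injured-father libraries, against 17.2 and 13.7, so the groups overlapped.

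Single classes differed in how far the members leaned. Negative log2 fold changes made up 24 of 33 members in vascular endothelial-like nuclei (median -0.08, 51.8% of all genes negative), 20 of 28 tested in smooth muscle-like nuclei (median -0.16, 49.7%) and 29 of 33 in fibroblast-like nuclei (median -0.22, 50.3%). The lowest median of the 8 classes tested was that of B lymphocyte-like nuclei, with 29 of 29 members negative and a median of -0.82 (49.3% of all genes negative). There edgeR called 0 members, as it called 0% of all genes, and 12 had an unadjusted p under 0.05 (5.21% of all genes). Those B lymphocyte-like sums include the few nuclei with many member UMIs described above, whose part in the difference was not tested. The median B lymphocyte-like nucleus held 10 and 13 member UMIs against 12 and 10, with overlap. Lymphatic endothelial-like nuclei came next, with 24 of 27 members tested negative and a median of -0.72 (49.8% of all genes negative). In them 13 members had an unadjusted p under 0.05 (edgeR, 4.50% of all genes), and 0 members and 0 genes were called. Their mean was 13.8 and 19.1 member UMIs per nucleus against 33.5 and 26.3, while the library medians ran from 13 to 16. Uninjured-father library 2 had 52 such nuclei. The part of nuclei with many member UMIs was not tested there. In ventricular-like nuclei, 25 of 33 members had the lower mean CPM after injured fathers but 4 of 33 the lower mean of UMIs per nucleus, as did 13.1% of 12085 genes. Ventricular-like nuclei of uninjured-father library 2 held a median of 3165 UMIs, against 4432, 5069 and 4784 in the other 3 libraries. The part of depth in the father comparison was not tested.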

How the data were processed

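Nuclei of 4 hearts were profiled with 10x 3' chemistry, per the labels' protocols. The deposited values are raw UMI counts per gene and nucleus from Cell Ranger (version 6.0.1 per the file headers). Seurat 4.0 is named in the submitters' processing notes. The genome build is not given in the sources used here. Gene positions are from GENCODE M21 (GRCm38).

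Nuclei with at least 500 UMIs, 300 genes and under 5% mitochondrial UMIs were kept, and Scrublet doublets were removed. Nuclei were clustered without the 33 genes (scanpy 1.11.5, Leiden, 3000 variable genes, 30 components, 20 neighbours, resolution 1), and clusters were named X-like from marker lists. Of 23 clusters, 3 stayed unnamed and were left out of the other nuclei, which was decided after the clusters were seen. Differences may depend on these rebuilt names. Counts were summed per library and class. Chamber differences are log2 of CPM + 1, within a library. Father groups were tested with edgeR 4.0.16 (quasi-likelihood, TMM, filterByExpr with a minimum count of 10, Benjamini-Hochberg, 0.05), checked on simulated data.

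The members and lists were chosen with earlier results of these data known. The value in every library is given for the 6 smallest p between father groups and the most abundant member of each role. It is also given for the 4 highest and 4 lowest chamber differences. The 4 highest and 4 lowest ratios of other to cardiomyocyte-like nuclei are named. Of these, Ttn, Ldb3 and Pdlim3 have the ratio in every library, and the others a mean and SD. DESeq2 1.42.0, limma-voom 3.58.1, other size factors, filters, the replicate block and leaving out each library were alternatives.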

Additional observations from a re-analysis of the deposited data

Results flagged for a closer look

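Nebl, which encodes the Z-disc protein nebulette, differed in sign between the father groups in its chamber difference. The log2 difference of atrial-like minus ventricular-like nuclei was -0.09 and -0.05 in the injured-father libraries and 0.06 and 0.04 in the uninjured-father libraries. The group means differed by -0.12 (injured minus uninjured). Every library of one group lay on one side of 0 and every library of the other on the opposite side. These values lie near 0, and that of uninjured-father library 2 rests on 48 atrial-like nuclei. How many other genes separate the groups in this way is not given. The difference itself was not tested.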

How the results depend on the processing

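With 2 libraries a group, counts of calls between father groups moved with the method. In cardiomyocyte-like nuclei 1 gene was called; DESeq2 called 31, limma-voom 0, no filter on low counts 187 and keeping doublets 4, and leaving out each library gave 1 to 185. Of the 33 genes 0 were called; DESeq2 called 1 and no filter 2, and leaving out each library gave 0 to 3. Leaving out a library leaves 1 in its group, so calls from those fits are not read as results about the members. Without uninjured-father library 1 the log2 fold change was -0.88 for Tcap and -0.75 for Lmod2. Without injured-father library 1 that of Myom2 was 0.74. In ventricular-like nuclei 1 gene was called, 5 by DESeq2, 0 by limma-voom and 0 to 78 when each library was left out. Tcap was among the 5 genes called there by DESeq2 (adjusted p = 0.0481). In other nuclei 32 genes were called, 13 by limma-voom and 0 to 438 when each library was left out. Alternatives for ventricular-like and other nuclei were chosen after seeing the data. Replicate numbers did not pair the samples (correlation of deviations 0.0756). With the replicate block, 29, 8 and 363 genes were called in cardiomyocyte-like, ventricular-like and other nuclei, and 1 of the 33 genes, Tcap (adjusted p = 0.0350, edgeR), in the first. The 3 genes past the chamber limit became 4 to 5 when each library was left out. The summed CPM of the 33 genes in other nuclei was 8.85% of that in cardiomyocyte-like nuclei, 14.3% with doublets kept and 23.7% ± 10.4 (SD, n = 4) in B lymphocyte-like nuclei alone. The last ranged from 11.6% to 36.7% across libraries and includes a few nuclei with over 100 UMIs of these genes, whose part was not tested.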
